A study of Mus musculus with 16 samples.

Results

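The genes described here were the ligands and receptors of the epidermal growth factor (EGF) family, 10 symbols chosen by name from a table of 18132 genes. The table held 7 of them, the ligands Egf, Hbegf, Areg, Tgfa, Ereg and Btc and the receptor Egfr, while the receptors Erbb2, Erbb3 and Erbb4 were not analysed here. Their levels were compared between kidneys with a closed ureter and control kidneys, in mice with and without IL-33. Unilateral ureteral obstruction (UUO), the closure of the ureter of 1 kidney with a metal clip, injures the tubules of that kidney within a day. RNA of each kidney was labeled and measured on 1 Illumina BeadChip, an array whose probes are brighter the more of their transcript is present. Of the 16 kidneys, 12 were taken 24 h after UUO (7 wildtype, WT, and 5 IL-33-deficient, KO) and 4 were controls (2 of each genotype). The mice were young adults of the C57BL/6J BomTac (B6JBOM) background, and the IL-33-deficient line had been backcrossed to that background and lacks IL-33 in every cell of the body. The UUO kidneys came from 2 sets of mice, set 1 with 3 WT and 2 KO kidneys and set 2 with 4 WT and 3 KO kidneys. The set of the 4 control kidneys, and any operation on them, are not given in the sources used here. In the UUO comparisons, closure of the ureter can therefore not be told apart from the surgery itself or from a difference between sets. The number in the label of a sample is used as the name of its kidney.

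EGF ligands are made as membrane-bound precursors from which proteases such as ADAM17 release the soluble growth factor. The released ligand binds EGFR, which pairs with itself or with another ERBB receptor and activates the RAS and ERK chain. In the kidney, EGF is made mainly by the thick ascending limb and the distal convoluted tubule, is shed into urine, and stimulates magnesium uptake through the channel TRPM6. HB-EGF, amphiregulin (Areg), TGF-alpha (Tgfa), epiregulin (Ereg) and betacellulin (Btc) bind the same receptor, and several of them are known as genes of tissue injury and repair.

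Values are log2 intensities after quantile normalization, on a scale whose lowest value was 6.59. The median gene had a log2 intensity of 7.05, so values near 7 were close to the background of the array, which is not a true zero and shrinks the changes of dim genes. Brightness depends on the probe, so levels are compared between kidneys and not between genes. Ereg, with a mean of 6.80 over the 16 arrays, was brighter than only 4.26% of all genes and Tgfa, with a mean of 6.97, brighter than 43.0%. The other members were brighter than 63.0% to 84.1% of genes. Il33, the deleted gene, lay between 6.80 and 7.02 in all 7 KO kidneys and between 7.62 and 9.57 in all 9 WT kidneys, as the labels state.

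One pair of WT kidneys of set 1, 3818 and 3820, stood apart from the other UUO kidneys. How far each kidney had responded was read by projecting its distance from its own control mean on the UUO response of the opposite genotype, using the genes that passed the test in that genotype. On this scale the control mean is 0 and a full response of the opposite genotype is 1. The genes used include Havcr1 and the members Egf, Btc and Areg, with Egfr for the WT kidneys and Hbegf for the KO kidneys. This score and Havcr1 are therefore not separate from the results below. The score was 0.57 in kidney 3818 and 0.37 in kidney 3820, against 0.76 to 0.95 in the other 5 WT kidneys after UUO. The 5 KO kidneys, at 1.11 to 1.25, were scored with other genes on the WT response, which holds the weak pair. Scores of KO and WT kidneys are therefore not compared. Havcr1, which encodes the tubular injury marker KIM-1, was lowest among the UUO kidneys in the same pair, with 12.84 in kidney 3818 and 10.42 in kidney 3820 against 13.12 to 13.95 in the other 10. Lcn2, another gene of injured tubules, was lowest in the pair too. Krt18 and Krt20 were not, with Krt20 at 9.27 in kidney 3893 and 9.68 in kidney 3818. Results that rest on kidneys 3818 and 3820 are given with and without them, a choice made after the data were seen.

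The question of the first comparison was how the EGF system changes when the ureter is closed. Within 24 h of UUO, Egf and Btc fell in both genotypes and Areg rose in both. Hbegf rose in WT kidneys, and Egfr rose by a small amount in KO kidneys. Tgfa and Ereg passed the test in neither genotype. In WT kidneys 4 of the 7 members passed an adjusted p of 0.05 from limma, where 15.2% of all genes did, 2 of them higher (6.97% of all genes) and 2 lower (8.22%). In KO kidneys 4 of 7 passed, where the share of all genes was 21.8%, again 2 higher (10.6% of all genes) and 2 lower (11.2%). The groups did not overlap for 4 members in WT kidneys, where 21.4% of all genes had groups without overlap, and for 5 members in KO kidneys, where 35% did. Each label holds a number of its own, so the samples were taken to be separate kidneys, and p-values measure the spread between them. RNA was taken from kidney tissue of many cell types, in which fewer cells of a type and less RNA per cell cannot be told apart.

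**Figure D1:**
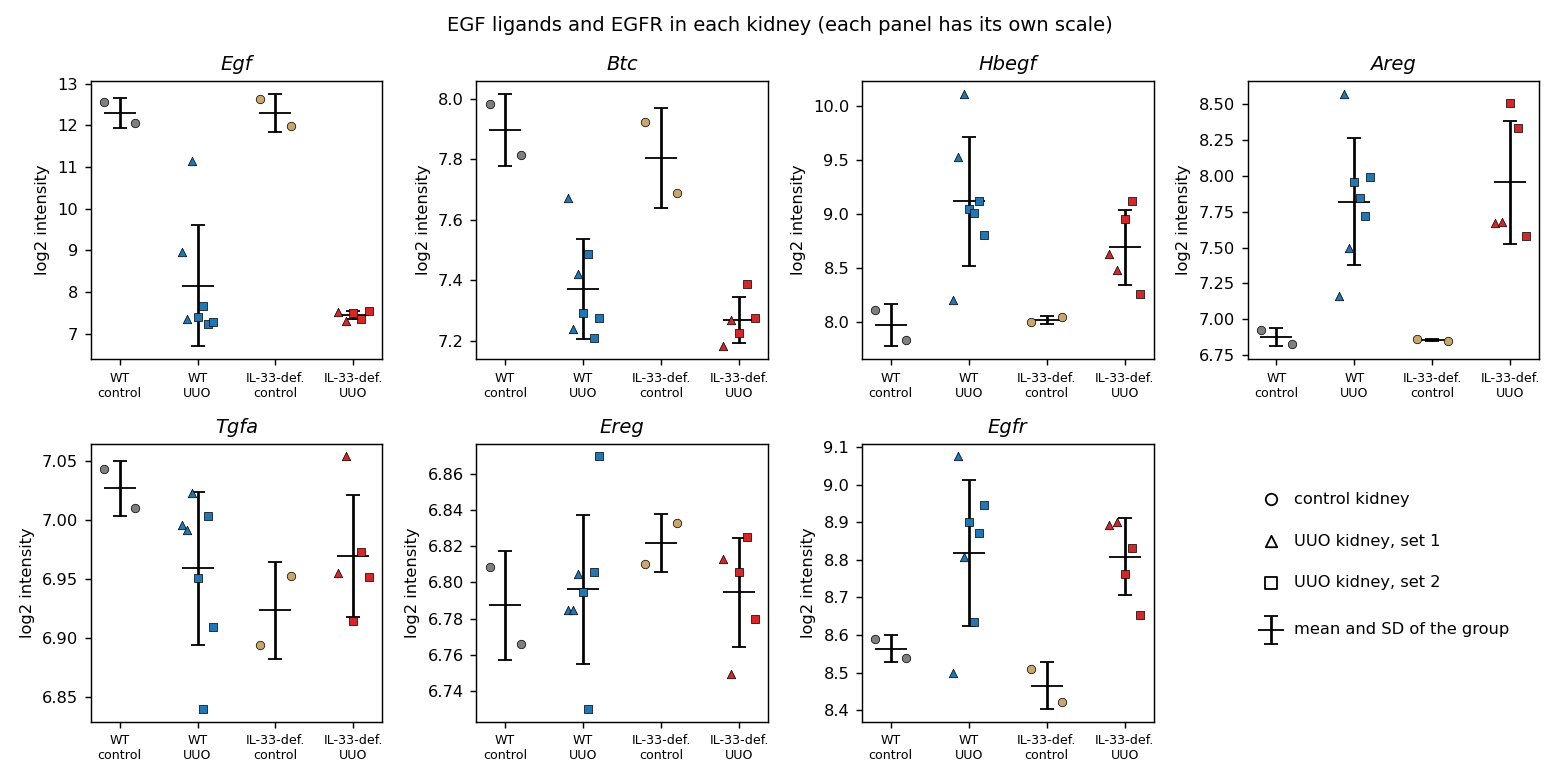
Log2 intensity of the 6 EGF ligands and Egfr in each of the 16 kidneys, by genotype and treatment, with the mean and SD of each group and a vertical scale of its own in each panel. Egf lay between 11.98 and 12.63 in the control kidneys and below 8 in all UUO kidneys but WT 3818 and 3820, while Tgfa stayed between 6.84 and 7.05 and Ereg between 6.73 and 6.87.

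The 250 bases before the annotated start are shown for Egf, Btc and Areg, the ligands that passed the test in both genotypes. RefSeq sequences of mouse build GRCm38.p6 were found for 5 of the 7 members, Egf, Areg, Tgfa, Btc and Egfr. Hbegf and Ereg had no entry in the table used. Each is printed 5′ to 3′ on the strand of the gene, for Egf from chr3:129755323-129755572 on the minus strand, for Areg from chr5:91139349-91139598 on the plus strand and for Btc from chr5:91402995-91403244 on the minus strand. The capitals mark TGACGTCA, the full cAMP response element (CRE), which binds CREB and ATF proteins.
Egf: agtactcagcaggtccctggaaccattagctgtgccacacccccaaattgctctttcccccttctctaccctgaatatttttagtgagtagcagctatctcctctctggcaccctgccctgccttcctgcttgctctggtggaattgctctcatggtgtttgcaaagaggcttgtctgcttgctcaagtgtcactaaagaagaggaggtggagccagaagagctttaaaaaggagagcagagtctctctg
Btc: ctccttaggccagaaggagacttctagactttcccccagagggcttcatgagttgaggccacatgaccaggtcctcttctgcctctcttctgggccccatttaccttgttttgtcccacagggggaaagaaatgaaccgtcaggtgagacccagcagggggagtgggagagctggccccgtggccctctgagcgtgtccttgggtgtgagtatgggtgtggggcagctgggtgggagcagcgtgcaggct
Areg: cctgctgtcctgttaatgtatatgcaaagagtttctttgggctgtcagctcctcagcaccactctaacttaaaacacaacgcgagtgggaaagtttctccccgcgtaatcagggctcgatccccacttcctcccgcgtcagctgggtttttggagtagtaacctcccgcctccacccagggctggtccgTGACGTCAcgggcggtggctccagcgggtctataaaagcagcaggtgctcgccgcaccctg
Both strands of each window were searched for the CRE and for the AP-1 site TGANTCA, where N is any base, letters that were chosen after the sequences had been seen. The CRE was found in the window of Areg alone among these 5 genes, with its last base 54 bases before the start, and in 1.55% of the 32851 windows of the same length in the RefSeq table. The AP-1 site was found in none of the 5 and in 6.75% of all windows. The Egf window held 0 CpG dinucleotides at a GC content of 50.4% and the Btc window 4 at 59.6%, against 15 at 57.2% for Areg, 11 at 60.8% for Egfr and 19 at 69.2% for Tgfa. The median over all windows was 6 CpG and 52.4% GC. A match of letters is a description of the window and not evidence of binding. Epgn, Ereg, Areg and Btc lie in this order next to each other in the same annotation, with 0 protein-coding genes between neighbours, and of the 3 members among them Areg rose, Btc fell and Ereg stayed near background.

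Egf, the founding ligand of the family, showed the largest fall of all 18132 genes in WT kidneys. Its log2 intensity was 12.56 and 12.05 in the WT controls, and after UUO the 7 WT kidneys lay between 7.23 and 11.15 with a median of 7.41. The highest of them were 3820 with 11.15 and 3818 with 8.97, and the other 5 lay between 7.23 and 7.66. Even the highest stayed below both controls. The change was -4.15 on the log2 scale (standard error, SE, 0.76, limma adjusted p = 0.00205), a level 17.8-fold lower with a 95% confidence interval of 5.79-fold to 54.5-fold. An exact two-sided permutation test gave p = 0.0278, the smallest that 2 against 7 kidneys allow.
In KO kidneys the controls were at 12.63 and 11.98, and the UUO kidneys at 7.52 and 7.32 in set 1 and 7.50, 7.36 and 7.54 in set 2. All 5 lay close together and far below the controls. The change was -4.86 (SE 0.79, limma adjusted p = 4.5e-04), a level 29.0-fold lower (95% confidence interval 9.01-fold to 93.5-fold) and the second largest fall in the table. The exact permutation p was 0.0476, the smallest that 2 against 5 allow. With the UUO kidneys of set 1 alone, 2 of whose 3 WT kidneys are 3818 and 3820, the WT change was -3.14 and missed the threshold (adjusted p = 0.151 from limma). Without 3818 and 3820 it was -4.92 (SE 0.16). Egf after UUO was near the background of the array, and with 80 intensity units subtracted the changes were -4.85 in WT and -5.72 in KO kidneys, so the folds above depend on the background.

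Btc, betacellulin, fell less, from a dimmer level. It was at 7.98 and 7.81 in the WT controls and between 7.21 and 7.67 after UUO with a median of 7.29, and the highest WT kidney was 3818. The KO controls were at 7.92 and 7.69 and the KO UUO kidneys at 7.18 and 7.27 in set 1 and 7.23, 7.39 and 7.28 in set 2. Every UUO kidney was below every control kidney of its genotype. The changes were -0.53 in WT (SE 0.10, limma adjusted p = 0.00326) and -0.54 in KO kidneys (SE 0.11, adjusted p = 0.00204), levels 1.44-fold and 1.45-fold lower. The call was lost when a single control remained, without WT control 3811 (adjusted p = 0.0802 from limma) and without KO control 3813 (0.0645), and in WT kidneys with set 1 alone (0.146).

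Hbegf, the heparin-binding ligand, was at 8.11 and 7.83 in WT controls and rose after UUO to between 8.20 and 10.11 with a median of 9.05. The lowest WT kidney was 3818 and the highest was 3820, so the pair with the weakest response held both ends of the range, and no UUO kidney overlapped a control. The change was 1.15 (SE 0.34, limma adjusted p = 0.0342), a level 2.21-fold higher (95% confidence interval 1.33-fold to 3.66-fold), with an exact permutation p of 0.0556. In KO kidneys the controls were at 7.99 and 8.04 and the UUO kidneys at 8.63 and 8.48 in set 1 and 8.96, 9.11 and 8.26 in set 2. All 5 were above both controls, and the change of 0.67 (SE 0.36, limma adjusted p = 0.230, exact permutation p = 0.0952) missed the threshold. The WT call was lost without WT control 3811 or 3812, without WT UUO 3819, 3892 or 3894, with set 1 alone and with WT arrays alone (adjusted p from 0.0502 to 0.268 from limma). The KO change passed with set 2 alone (0.76, adjusted p = 0.0134 from limma) and with KO arrays alone (adjusted p = 0.0437).

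Areg, amphiregulin, was close to background in the controls, at 6.92 and 6.83 in WT and 6.86 and 6.85 in KO kidneys. After UUO it lay between 7.16 and 8.57 in WT kidneys with a median of 7.84, lowest in 3818 and next lowest in 3820 with 7.50. In KO kidneys it was at 7.67 and 7.68 in set 1 and 8.51, 8.34 and 7.58 in set 2. No UUO kidney of either genotype overlapped its controls. The log2 change was 0.95 in WT (SE 0.29, limma adjusted p = 0.0397) and 1.10 in KO kidneys (SE 0.30, adjusted p = 0.0158), levels 1.93-fold and 2.15-fold higher, and the exact permutation p was the smallest the groups allow in both (0.0278 and 0.0476). Because the controls were near background, subtraction of 80 intensity units raised the changes to 1.92 and 2.20. The call was lost with set 1 alone in both genotypes, with WT arrays alone, and without any 1 of WT 3811, 3812, 3892, 3893, 3894 and 3895 or KO control 3813 or 3814 (adjusted p from 0.0530 to 0.282 from limma).

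Egfr, the receptor, moved by less than Egf, Btc, Hbegf and Areg. It was at 8.59 and 8.54 in WT controls and between 8.50 and 9.07 after UUO with a median of 8.87, lowest in 3818, where it overlapped the controls. The WT change was 0.25 (SE 0.11, limma adjusted p = 0.163). KO controls were at 8.51 and 8.42 and KO UUO kidneys at 8.89 and 8.90 in set 1 and 8.76, 8.83 and 8.65 in set 2, without overlap. The KO change was 0.34 (SE 0.12, limma adjusted p = 0.0491), a level 1.27-fold higher. This call was at the edge of the threshold and was lost without either control, without any 1 of the UUO kidneys but 3899, with set 1 alone, without the second quantile normalization, with 80 units subtracted and with a trend of the prior variance (adjusted p from 0.0547 to 0.268 from limma). It was lost as well where a fold over 1.3 was asked besides, while the WT change passed without 3818 (adjusted p = 0.0304), with set 2 alone (0.0285) and without 3818 and 3820 together (0.32, adjusted p = 0.0212).

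Tgfa and Ereg gave no change beyond their spread. Tgfa lay between 6.84 and 7.05 and Ereg between 6.73 and 6.87 over all 16 kidneys. The log2 changes after UUO were -0.07 in WT (95% confidence interval -0.17 to 0.03) and 0.05 in KO kidneys (-0.06 to 0.15) for Tgfa, and 0.01 (-0.07 to 0.09) and -0.03 (-0.11 to 0.05) for Ereg.

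**Figure D2:**
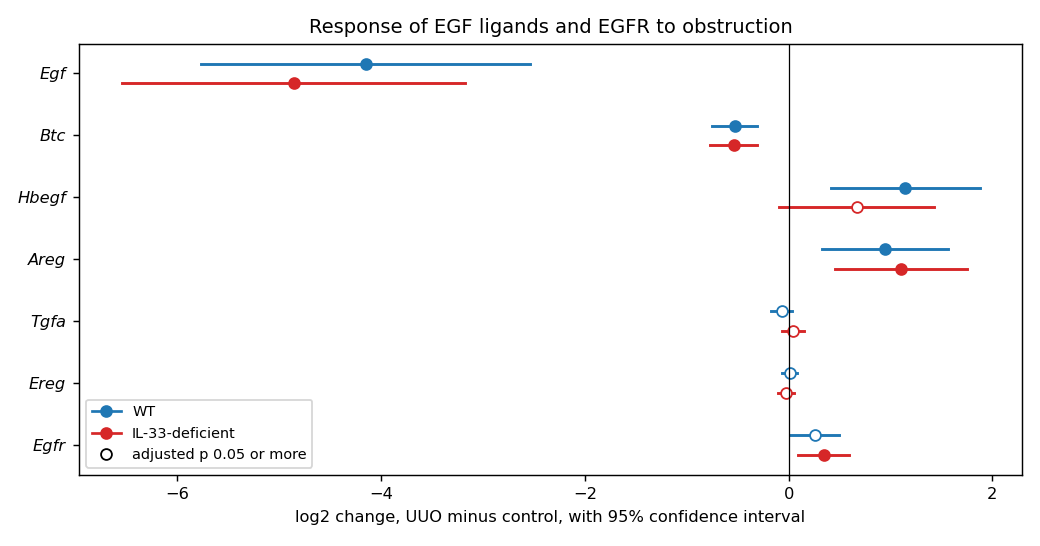
Log2 change of each member after UUO, UUO minus control, in WT (blue) and KO kidneys (red), with 95% confidence intervals from limma. Filled points passed an adjusted p of 0.05. Egf, at -4.15 and -4.86, lies far outside the range of the other members, which runs from -0.54 to 1.15.

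Egf was set beside 8 markers of the segments that make it. In WT kidneys 4 of the 8 fell and 0 rose, with a median change of -0.60, where 8.22% of all genes fell. In KO kidneys 3 fell and 0 rose, with a median of -0.36, where 11.2% of all genes fell. The median of all genes was -0.000759 in WT and -0.00057 in KO kidneys. The parvalbumin gene Pvalb, a calcium-binding protein of the distal convoluted tubule, fell by 3.07 and 3.19 on the log2 scale in WT and KO kidneys, and Slc12a1, the sodium, potassium and chloride carrier of the thick limb, fell by 3.12 and 3.13. Kcnj1, the potassium channel of the same cells, fell by 0.74 and 0.66. Slc12a3, the thiazide-sensitive carrier, fell by 0.63 in WT kidneys (adjusted p = 0.00833 from limma), and its change in KO kidneys was -0.35 (adjusted p = 0.123).
Umod, which encodes uromodulin, the most abundant product of the thick limb, lay between 12.70 and 13.95 in all UUO kidneys against 13.52 to 13.91 in controls, and its changes of -0.57 and -0.37 missed the threshold (adjusted p = 0.163 and 0.400 from limma). Without WT 3818 and 3820 Umod fell in WT kidneys, with a change of -0.78 (adjusted p = 0.00522 from limma). In that fit 5 of the 8 markers were called lower, where 22.7% of all genes were called in either direction. Cldn16 and Cldn19, tight junction proteins of the thick limb, gave changes between -0.17 and 0.02, and Calb1 was at background in every kidney. The summed intensity of the 8 markers, most of it from Umod, was 21125 to 23683 in WT controls, 8722 to 20464 in WT UUO, 18481 to 21921 in KO controls and 10701 to 14495 in KO UUO kidneys. The part of the change in the number of these cells in the fall of Egf was not tested. Kidney 3820 held the highest Slc12a1 (10.97) and Umod (13.95) of all UUO kidneys as well as the highest Egf. Trpm6, the magnesium channel on which EGF acts, fell by 0.23 in WT kidneys (adjusted p = 0.0133 from limma), and its change in KO kidneys was -0.17 (adjusted p = 0.0556).

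**Figure D3:**
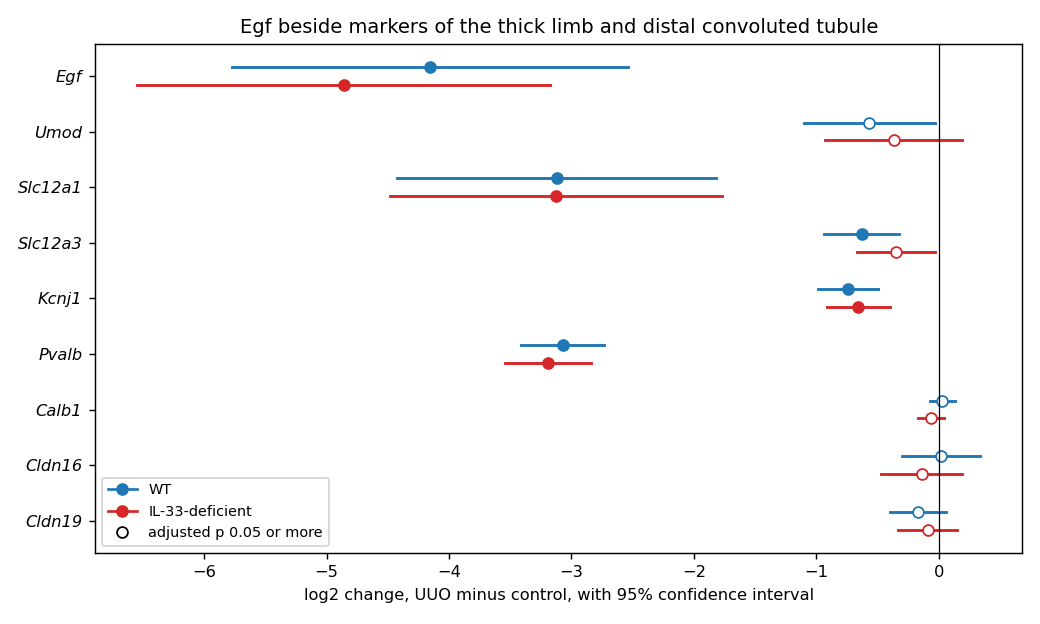
Log2 change after UUO of Egf and of 8 markers of the thick limb and distal convoluted tubule, UUO minus control, in WT (blue) and KO kidneys (red), with 95% confidence intervals from limma and open points where the adjusted p was 0.05 or more. Slc12a1 (-3.12 and -3.13) and Pvalb (-3.07 and -3.19) fell in both, while Umod, Calb1, Cldn16 and Cldn19 passed the test in neither genotype.

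Some markers of other cells moved as well. Of all genes, 6.97% were called higher in WT and 10.6% in KO kidneys, and 8.22% and 11.2% lower. Of 6 collecting duct markers 3 fell in each genotype, with median changes of -0.76 in WT and -0.94 in KO kidneys. Of 5 measured proximal tubule markers 0 passed in WT and 4 fell in KO kidneys, with medians of -0.65 and -0.98. A fall of tubule markers was thus not particular to the segments that make Egf. Of 5 leukocyte markers, Cd68, a macrophage gene, rose in both genotypes (0.62 in WT and 0.96 in KO kidneys), and the other 4 did not pass. With 1 of 5 called, this is no result about leukocytes as a list. Ptprc, which marks all leukocytes, and Itgam lay near background, between 6.75 and 6.93 in all 16 kidneys. The summed intensity of the 5 was 649 to 653 in WT controls, 647 to 816 in WT UUO, 644 to 679 in KO controls and 718 to 851 in KO UUO kidneys. Of 4 fibroblast markers 3 rose in each genotype, and all 4 injured tubule markers rose in each. The part of these cells in the rise of Areg and Hbegf was not tested.

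Egf and Hbegf did not move as mirror images across kidneys. Kidney 3820 kept the highest Egf of the UUO kidneys, 11.15, and had the highest Hbegf of all 16 kidneys, 10.11. Kidney 3818 kept Egf at 8.97 and had the lowest Hbegf of the UUO kidneys, 8.20, against 8.11 in the highest control. Areg in 3820, 7.50, was in contrast below that of all UUO kidneys but 3818. Without these 2 kidneys the WT changes were 1.13 for Hbegf (SE 0.21, limma adjusted p = 9.0e-04) and 1.14 for Areg (SE 0.25, adjusted p = 0.00329), with 5 members called in place of 4, where 22.7% of all genes were called.

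**Figure D4:**
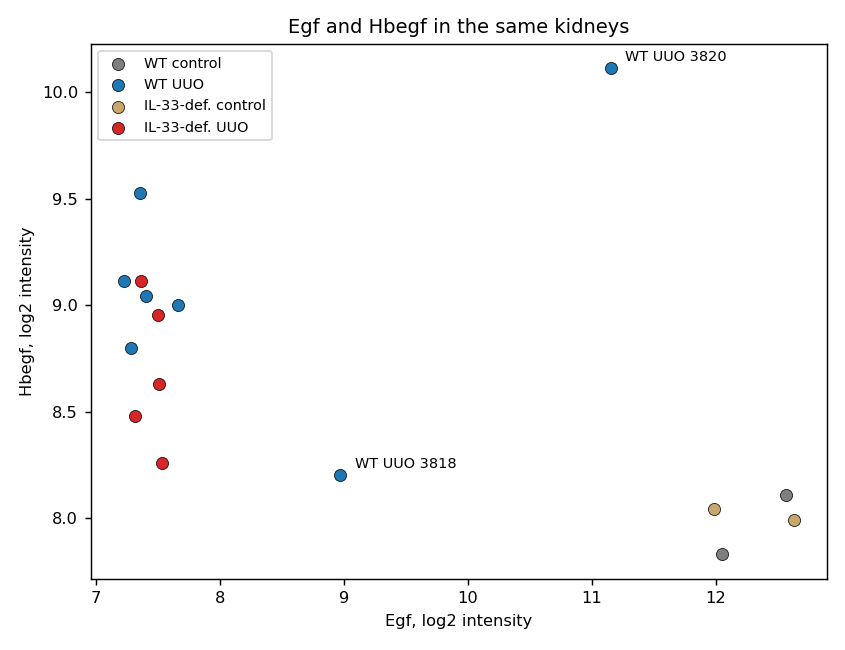
Log2 intensity of Hbegf against that of Egf in the 16 kidneys, by genotype and treatment. The 4 controls lie together at high Egf and low Hbegf, 10 UUO kidneys lie at Egf between 7.23 and 7.66, and the WT kidneys 3818 and 3820 stand apart from both.

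The next question was whether IL-33 deficiency changes the EGF system. In control kidneys 0 of the 7 members and 0 of 18132 genes passed an adjusted p of 0.05 from limma (0% of genes, with 3.66% of genes and 0 members at an unadjusted p under 0.05). Egf was at 12.30 ± 0.36 (SD, n = 2) in WT and 12.31 ± 0.45 (SD, n = 2) in KO controls, a difference of 0.00 with a 95% confidence interval of -2.02 to 2.02, which is too wide to show equality. The interval for Hbegf was -0.86 to 0.96, for Areg -0.80 to 0.75, for Btc -0.37 to 0.18 and for Egfr -0.40 to 0.20.

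After UUO 0 members passed a looser threshold (a fold over 1.3 with limma p-values under 0.05 before and 0.25 after adjustment), and 0.011% of all genes did, namely Il33 and the smooth muscle actin gene Acta2. At an adjusted p of 0.05 from limma 0 members and 0.00552% of genes passed. At an unadjusted p under 0.05 it was 0 members and 10.3% of genes. The groups overlapped for all 7 members and were without overlap for 0.756% of genes. Egf was at 7.45 ± 0.10 (SD, n = 5) in KO and 8.15 ± 1.45 (SD, n = 7) in WT kidneys, and the difference of -0.71 (95% confidence interval -1.99 to 0.58) came from set 1, where it was -1.74, while in set 2 it was 0.07. Without WT 3818 and 3820 it was 0.06 (95% confidence interval -0.11 to 0.23). The wider spread of Egf in WT kidneys was thus the spread of these 2 kidneys.
Hbegf was lower in KO than in WT kidneys by the mean, at 8.69 ± 0.35 (SD, n = 5) against 9.12 ± 0.59 (SD, n = 7), and the groups overlapped. The difference was -0.43 (95% confidence interval -1.01 to 0.15, adjusted p = 0.629 from limma, exact permutation p = 0.186). It was -0.72 in set 1, -0.21 in set 2, -0.42 with the set as a block and -0.41 without WT 3818 and 3820 (95% confidence interval -0.77 to -0.05, adjusted p = 0.425 from limma). The same direction was measured throughout, and the threshold was passed in none of these.
Areg was at 7.96 ± 0.43 (SD, n = 5) in KO and 7.82 ± 0.44 (SD, n = 7) in WT kidneys, and Egfr at 8.81 ± 0.10 (SD, n = 5) and 8.82 ± 0.19 (SD, n = 7). The differences were 0.13 (95% confidence interval -0.36 to 0.63) for Areg, -0.01 (-0.20 to 0.18) for Egfr and -0.10 (-0.26 to 0.06) for Btc. Within the KO kidneys of set 2, 3897 and 3898 were high and 3899 low in both Hbegf and Areg.

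The difference between the genotypes in the response itself was tested as an interaction. It was called for 0 of 7 members and 0 of 18132 genes at an adjusted p of 0.05 from limma (0% of genes, with 4.74% of genes and 0 members at an unadjusted p under 0.05). The estimates were -0.71 for Egf (95% confidence interval -3.05 to 1.63), -0.47 for Hbegf (-1.53 to 0.58), 0.16 for Areg (-0.74 to 1.05), 0.11 for Tgfa (-0.03 to 0.26), 0.09 for Egfr (-0.26 to 0.43), -0.01 for Btc (-0.33 to 0.31) and -0.04 for Ereg (-0.15 to 0.07). That Hbegf passed in WT and not in KO kidneys, and Egfr in KO and not in WT kidneys, is therefore not shown to be a difference between the genotypes.

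The rest of the pathway was followed in 5 lists. Among further ligands of the ERBB receptors, 4 of 5 were measured. Nrg1, neuregulin 1, a ligand of ERBB3 and ERBB4, rose from 7.65 and 7.93 in WT controls to between 8.22 and 9.75 with a median of 9.47, and from 7.63 and 7.82 in KO controls to between 9.15 and 9.61 with a median of 9.52. No UUO kidney overlapped a control. The log2 changes were 1.47 in WT (SE 0.29, limma adjusted p = 0.00347) and 1.71 in KO kidneys (SE 0.30, adjusted p = 8.4e-04). Nrg4, a ligand of ERBB4, rose by 0.27 in KO kidneys, with a change of 0.13 in WT (adjusted p = 0.199 from limma). It lay close to background, at 6.95 and 6.97 in KO controls and between 7.12 and 7.30 in KO UUO kidneys. Epgn (-0.04 in both genotypes) and Nrg3 (0.01 in both) did not pass. In this list 1 gene was called in WT and 2 in KO kidneys, where 15.2% and 21.8% of all genes were called.

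Read against the 15.2% and 21.8% of all genes called in WT and KO kidneys, the counts for shedding and for inhibitors that follow are no result about these lists, and single genes are given as a description. Of 7 genes for the shedding of ligands, 1 rose and 1 fell in WT kidneys and 1 rose in KO kidneys. Rhbdf1, which encodes a partner of the protease ADAM17, rose by 0.48 and 0.59. Rhbdl2, a membrane protease, fell by 0.42 in WT kidneys, with a change of -0.30 in KO kidneys (adjusted p = 0.0725 from limma). Adam17 itself changed by -0.21 and -0.12 (adjusted p = 0.0798 and 0.369 from limma).
Of 17 inhibitors and feedback genes 14 were measured, and 12 in WT and 11 in KO kidneys did not pass. Among these the feedback genes Dusp4, Dusp6, Spry2, Spry4, Spred1 and Spred2 gave changes between -0.17 and 0.12 in the 2 genotypes. Socs2, an inhibitor of cytokine and growth factor receptors, rose by 1.35 and 1.39, Socs5, which promotes the loss of EGFR, fell by 0.29 and 0.36, and Lrig1, which restrains ERBB receptors, fell by 0.31 in KO kidneys.
Of the genes of the signal relay, 20 of 21 were measured, and in each genotype 3 rose, where 6.97% of all genes rose in WT and 10.6% in KO kidneys. Nras, a RAS protein, rose by 0.96 and 1.01, the phosphatase gene Ptpn11 by 0.29 and 0.42 and the adaptor gene Shc1 by 0.28 and 0.30. Gab1, an adaptor that binds EGFR signalling complexes, fell by 0.72 in KO kidneys, with a change of -0.32 in WT (adjusted p = 0.122 from limma).

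Of the 5 lists, that of targets induced through ERK held the most genes that rose. It had 4 of 11 measured genes higher and 0 lower in each genotype, where 6.97% of all genes rose in WT and 10.6% in KO kidneys. Its median change was 0.84 in WT and 0.67 in KO kidneys, against the medians of all genes given above. Egr1, an immediate early transcription factor, rose by 2.38 and 2.49, from between 7.95 and 9.26 in the 4 controls to between 9.54 and 12.25 in the 12 UUO kidneys. Emp1, a membrane protein of epithelia, rose by 1.31 and 1.27, Sphk1, which makes sphingosine 1-phosphate, by 1.14 and 1.35, and Plaur, the urokinase receptor, by 1.08 and 1.04. The other 7 passed in neither genotype. In WT kidneys Phlda1 changed by 0.96, Fos by 0.84 and Myc by 0.17. The remaining Etv4, Ier3, Ccnd1 and Etv5 changed by 0.07, 0.02, -0.04 and -0.20. Without WT 3818 and 3820 the count in WT kidneys was 7 of 11, with Fos, Myc and Phlda1 added, where 11.1% of all genes rose. These genes also answer to other receptors, and the part of EGFR ligands in their rise was not tested. In none of the 5 lists was a gene called for the difference between the genotypes in the response, nor for KO against WT kidneys after UUO. Without WT 3818 and 3820 the looser threshold was passed after UUO by Errfi1, an inhibitor of EGFR in the list of inhibitors, among 0.237% of all genes. Its log2 intensity was 12.27 ± 0.15 (SD, n = 5) in KO and 12.94 ± 0.34 (SD, n = 7) in WT kidneys, and the groups overlapped. The difference was -0.67 (limma adjusted p = 0.304), and -0.57 without the pair (adjusted p = 0.193 from limma), while its interaction was not called in either fit (adjusted p = 0.973 and 0.899 from limma).

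**Figure D5:**
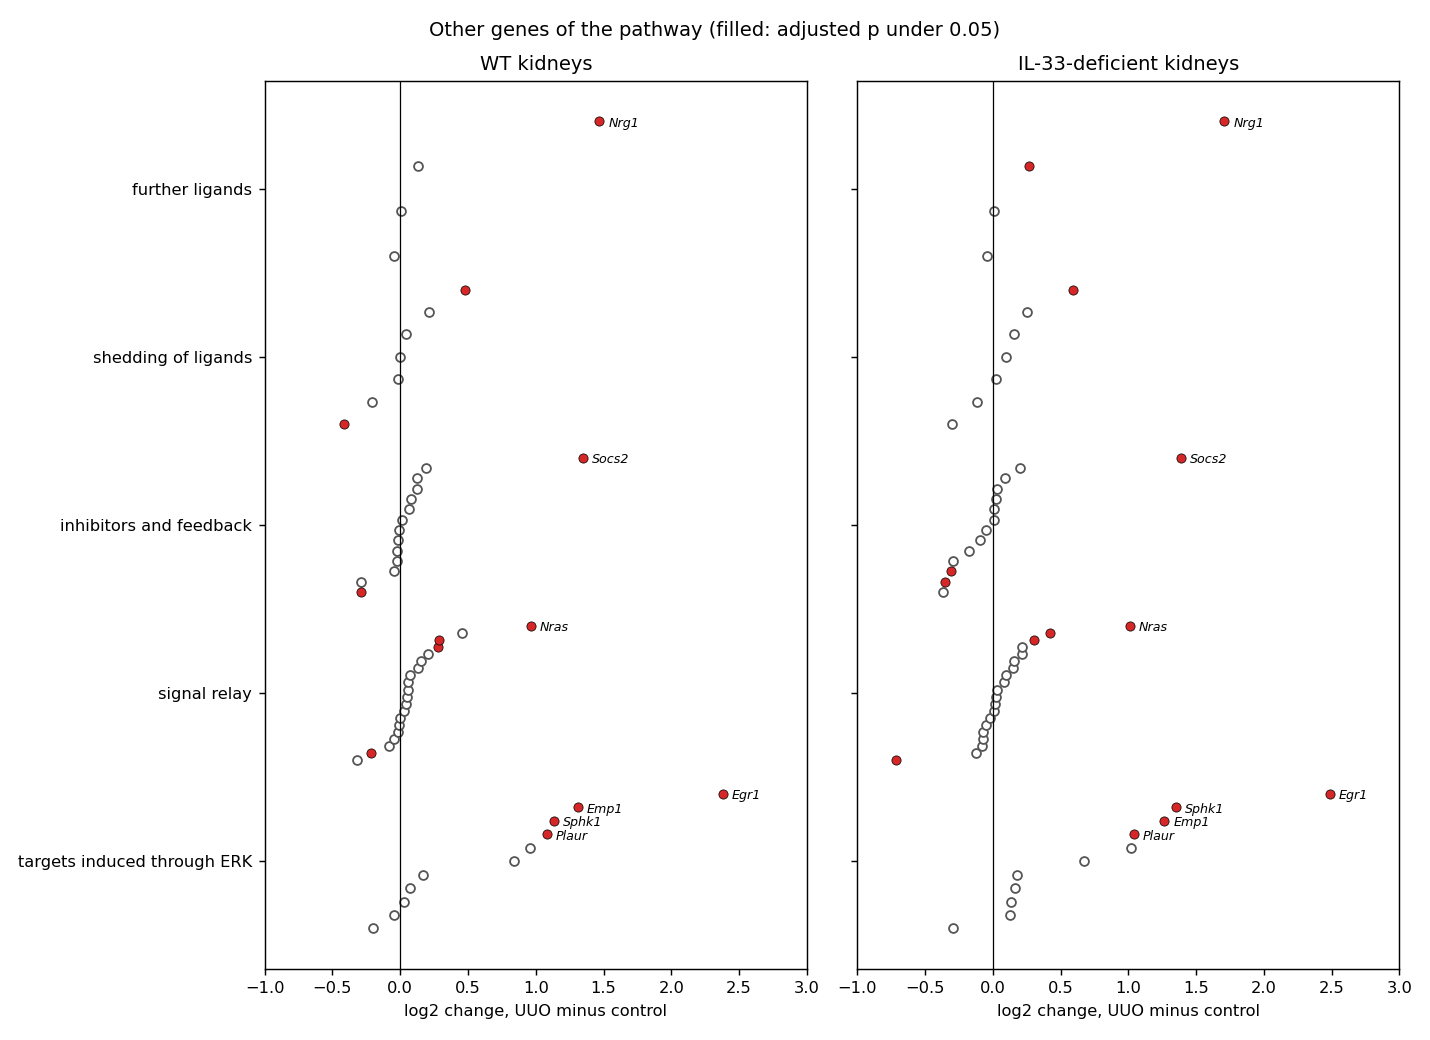
Log2 change after UUO of the measured genes of 5 lists of the ERBB pathway, UUO minus control, in WT (left) and KO kidneys (right), spread vertically by size within a list. Filled points passed an adjusted p of 0.05, and called genes with a rise over 0.9 are named, among them Nrg1 (1.47 and 1.71) and Egr1 (2.38 and 2.49).

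The genes whose pattern was most like that of a member were looked for among 9065 brighter genes, by Pearson's correlation over the 16 arrays, for the 3 members whose group means spanned more than 1 on the log2 scale. The arrays share groups, so r follows the treatment above all and is given as a description. For Egf they were Slc4a1, an anion exchanger of the collecting duct list (r = 0.990), Smarca2, a chromatin remodeller (0.989), and Fam107a (0.987). For Hbegf they were the cytokine gene Lif (0.948), Fos (0.935) and Atf3 (0.930). For Areg they were Trib3 (0.961), Csnk1d (0.955) and Chac1 (0.955), of which Chac1 had the largest change, 2.11 in WT and 2.60 in KO kidneys.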

How the data were processed

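The authors imported the arrays, per the labels processed with BeadStudio 2, and deposited 1 linear intensity per gene and array, with no missing value in 18132 genes and 16 arrays. Background correction, normalization and the rule that joins probes are not given in the sources used here. Array medians lay between 132 and 133, which shows that the deposited values had been scaled between arrays. Precision is limited by how many arrays there were. The log2 values of the arrays were, after quantile normalization, tested with limma 3.58.1 in R 4.3.3 (lmFit, eBayes), adjusted by Benjamini-Hochberg across the whole table. One model of 4 group means gave the responses to UUO, their difference and the control comparison (adjusted p under 0.05), and the 12 UUO arrays gave KO against WT. Confidence intervals are at 95%. Permutation tests were exact and two-sided. Plots were drawn with matplotlib 3.10.9. Symbols are those of the table, in mouse style. Members and lists were chosen with earlier results of these data known. Genes were named by rule: all members, up to 4 called genes of a list with the largest change, Trpm6, Il33 and the 3 likest genes. Some other genes of the lists are named outside this rule. One gene of the signal relay list is not reported here.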

Additional observations from a re-analysis of the deposited data

How the results depend on the processing

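No paired analysis was possible because the replicate numbers differ between all kidneys. The count of members called was 0 under every alternative for the genotype comparisons and the interaction. In WT kidneys the count was 4 in the main fit, 0 with the UUO kidneys of set 1 alone (4 members at an unadjusted p under 0.05 from limma), 2 with WT arrays alone (Egf and Btc), and 1 to 5 when single arrays were left out, with 1 left without control 3811, 2 without control 3812, UUO 3892 or UUO 3894, and 5 without UUO 3818. In KO kidneys it was 4, 2 with set 1 alone, and 1 to 4 when single arrays were left out, with 1 left without control 3813 and 2 without control 3814. Where 1 control was left it was assumed to vary like the other groups. The cause of these losses was not tested beyond the smaller number of arrays. The share of all genes called was 15.2% in the main WT fit and 21.8% in the main KO fit. It is not given for these alternatives, so a loss of member calls cannot be told from a loss over all genes. Egf kept its call in WT kidneys under 19 of 20 alternatives and in KO kidneys under all 17.
Signs turned only among changes that no test called. With array weights the interaction for Btc was 0.0192. With set 1 alone the interaction for Areg was -0.0449, and after UUO the genotype differences were -0.0667 for Areg and 0.103 for Egfr. With set 2 alone the interactions were 0.069 for Egf and 0.0738 for Btc, and the genotype differences after UUO 0.071 for Egf and 0.00345 for Ereg. Without WT 3818 and 3820, chosen after seeing the data, the interactions were 0.0563 for Egf, -0.0413 for Areg and 0.0606 for Btc, and the genotype differences after UUO 0.0583 for Egf and -0.063 for Areg. With single arrays left out, the interaction for Btc ran from -0.13 to 0.11 and the WT change of Ereg from -0.0125 to 0.0301. The genotype differences in controls ran from -0.32 to 0.32 for Egf, -0.0921 to 0.19 for Hbegf, -0.0677 to 0.0242 for Areg and -0.21 to 0.0245 for Btc, and after UUO from -0.00356 to 0.26 for Areg, -0.0641 to 0.0317 for Egfr, -0.0106 to 0.0242 for Tgfa and -0.0127 to 0.0105 for Ereg.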
